A study of Mus musculus with 16 samples.

Results

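The 12 arrays of the overexpression arm fell into 2 sets by replicate number: replicates 3 and 4 of every group (6 arrays) and replicates 1 and 2 of every group (6 arrays). Both sets hold the same 3 groups, so a difference between them is a difference between arrays that carry the same genotype label. The set of each array was taken from the replicate number in its title alone, and the 12 arrays are part of a series of 16. The groups were cells labelled Tgif1 OE, cells overexpressing Tgif2 (Tgif2 OE) and BirA control cells overexpressing BirA, each with 4 arrays. BirA is a bacterial biotin ligase that biotinylates proteins carrying its target tag. Per the labels, all were mouse J1 embryonic stem (ES) cells, a male line, grown on gelatin in medium with 20% fetal bovine serum and LIF, and none was given a further treatment. The remaining 4 arrays, 2 of Tgif1 KD and 2 of shControl cells, carry replicate numbers 1 and 2 only and served to show where a control measure stood. The labels do not say what the numbers 1 to 4 stand for, which promoter drives a transgene, whether a group is 1 clone, or whether replicates were separate cultures, so p-values measure the spread between these arrays, which may be technical.

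ES cells in serum and LIF move between a naive state, held by LIF acting through Stat3 and by transcription factors such as Nanog, Esrrb, Klf4, Klf5 and Tbx3, and states closer to differentiation in which those factors are lower. The p53 protein is present in ES cells and switches on genes for arrest, apoptosis and repair after DNA damage. RNA quality is read on these arrays from probe sets at the 5′ and 3′ ends of the same control transcript, because degraded or shortened RNA loses signal at its 5′ end first.

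Each array gave an RMA log2 intensity for 22690 probe sets, and 12393 genes were tested with 1 probe set each. Column medians ran from 6.86 to 7.05 over the 12 arrays. General ES cell markers were bright on all 12: Pou5f1 lay between 12.93 and 13.18 log2, and Dppa5a between 14.02 and 14.28 log2. The Tgif1 probe set did not follow its label. It read 10.06, 10.02, 10.25 and 10.14 log2 on replicates 3, 4, 1 and 2 labelled Tgif1 OE, against 10.70, 10.74, 10.65 and 10.67 log2 on BirA control arrays. Tgif2 read 9.29, 9.47, 9.30 and 9.42 log2 on the arrays labelled Tgif2 OE, against 9.24, 9.17, 9.35 and 9.28 log2 on BirA control arrays. It is not known here if these probe sets detect the transgenes, and the groups keep the names of their labels. Neither gene passed the threshold between the sets. Tgif1 differed by -0.02 ± 0.05 log2 (adjusted p = 0.794) and Tgif2 by -0.09 ± 0.05 (0.184; 0.0491 without Tgif2 OE replicate 4). Here and below, a difference is the mean of replicates 3 and 4 minus the mean of replicates 1 and 2 with the group as a covariate, ± is its standard error, and adjusted p is from limma with Benjamini-Hochberg adjustment over all 12393 genes (6 arrays against 6).

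The arrays stood in close pairs. Between replicates 3 and 4 the median gene differed by 0.0624, 0.0902 and 0.0819 log2 in the Tgif1 OE, Tgif2 OE and BirA control groups, and between replicates 1 and 2 by 0.0967, 0.0721 and 0.0839 log2. Across the sets, 2 arrays of 1 group differed by 0.142 to 0.168 log2. The 2 arrays of a pair were thus closer to each other than arrays of different pairs in every group, and the labels do not say what a pair shares. Counts of list members over all 3 groups are followed by those with the arrays of each pair averaged to 1 value. That fit treats the 6 pairs as the samples and was added after the data were seen. Every such count stands beside the shares over all genes, 20.0% higher and 16.1% lower (7.29% and 7.30% with pairs averaged).

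The array set was the main source of variation within groups. After group means were removed, the first component held 54% of the variance, and the second 12.9%. All 6 arrays of replicates 3 and 4 lay on one side of it, and all 6 of replicates 1 and 2 on the other. Of 12393 genes, 4473 (36.1%) differed between the sets, 2478 higher (20.0%) and 1995 lower (16.1%) in replicates 3 and 4. With array pairs averaged, 1809 genes (14.6%) passed, 904 higher (7.29%) and 905 lower (7.30%), and 1805 of them were among the 4473. Most differences were small. Over the 4473 genes the median size was 0.25 log2, and 15 genes rose and 6 fell by at least 2-fold (0.121% and 0.0484% of all genes). The median difference of all genes was 0.025 log2. Both arrays of a pair lay beyond both arrays of the other pair, in the same direction in all 3 groups, for 3241 genes (26.2%), of which 3116 passed the test.

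**Figure D1:**
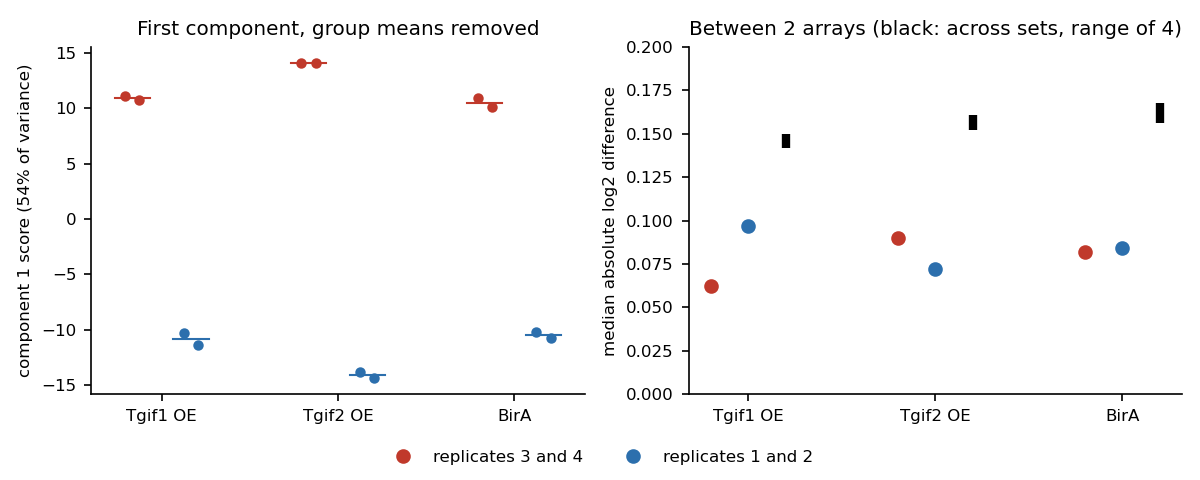
Left, score of each array on the first component after group means were removed, in Tgif1 OE, Tgif2 OE and BirA control cells, with replicates 3 and 4 in red, replicates 1 and 2 in blue and lines at pair means. Right, median absolute log2 difference over 12393 genes between the 2 arrays of a pair (points) and between arrays of different pairs of a group (black, range of 4). The component splits the sets without overlap, and pairs differ by at most 0.0967 against at least 0.142 across the sets.

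The 12 largest falls and rises were chosen among genes whose arrays separated in the same direction in each group, so that agreement between groups is part of the choice. Stag3, a subunit of the meiotic cohesin ring, was at 6.45, 6.84 and 7.00 log2 (lowest, median and highest) in replicates 3 and 4, against 7.89, 8.01 and 8.34 log2 in replicates 1 and 2, a difference of -1.32 ± 0.07 (adjusted p = 7.48e-07). Gdap10 was at 6.25, 6.44 and 6.65 log2, against 7.39, 7.60 and 7.85 log2 (-1.16 ± 0.06, adjusted p = 4.52e-07). The ranges of the sets did not overlap for either gene, and the within-group differences of Gdap10 were -1.13 in Tgif1 OE, -1.18 in Tgif2 OE and -1.17 in BirA control cells. Cyp1a1, a cytochrome P450 induced through the aryl hydrocarbon receptor, fell by 1.25 ± 0.13 log2, and Kmt2c, a histone H3 lysine methyltransferase, fell by 1.11 ± 0.07. Taf1d, part of the promoter factor of RNA polymerase I, was at 9.24 to 9.45 log2 in replicates 3 and 4, against 10.11 to 10.51 log2 in replicates 1 and 2. It fell on all of its probe sets, by 0.99 ± 0.05 on the one tested and by 0.70 to 1.27 on the other 4.

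Tnpo2, a nuclear import receptor, fell by 0.95 ± 0.06 log2 and its other probe set by 0.70. Herpud1, which helps to clear misfolded proteins from the endoplasmic reticulum (ER), also fell by 0.95 ± 0.07. Chac1, which degrades glutathione, fell by 0.96 ± 0.13, and Calcoco2, an autophagy receptor, by 0.92 ± 0.10. For 3 more of the largest falls the probe sets of the gene disagreed. Stat3, the transcription factor that LIF activates, fell by 1.17 ± 0.09 on the probe set tested, while its others gave -0.48 and -0.03. Mark2, a kinase of microtubule-associated proteins, fell by 1.10 ± 0.05, and its others gave 0.12 and -0.17. Car8, a protein related to carbonic anhydrases, fell by 0.98 ± 0.10, and its other gave 0.00. Such disagreement was common: of 3468 other probe sets of called genes, 72.5% had the same sign, 38.2% passed the test in the same direction and 7.44% passed in the opposite one. Other probe sets are given for some genes only, and their absence from the text does not mean that they agreed.

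For 9 of the 12 largest rises the size of the difference depended on the group. Frmd4b, a scaffold protein with a FERM domain, was at 6.55, 7.36 and 8.05 log2 in replicates 3 and 4, against 5.30, 5.60 and 6.89 log2 in replicates 1 and 2 (1.43 ± 0.11, adjusted p = 4.88e-06). Its other probe sets gave 0.96, 0.11 and 0.32. Ltb, which encodes the cytokine subunit lymphotoxin beta, was at 6.50, 9.67 and 10.02 log2, against 5.84, 7.49 and 8.59 log2 (1.43 ± 0.19, adjusted p = 1.34e-04). Ranges overlapped over the whole sets for both genes because the groups differed in level. Within each group both arrays of replicates 3 and 4 were above both of 1 and 2, as the choice of genes required. Irs1, an insulin receptor substrate, rose by 1.13 ± 0.09 and Apobec2, of the cytidine deaminase family, by 1.07 ± 0.08, and the size of the rise did not pass as different between groups for either (interaction adjusted p of 0.240 and 0.104).

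The keratin gene Krt19 was at 6.01, 8.39 and 8.73 log2 in replicates 3 and 4, against 5.35, 6.48 and 7.26 log2 in replicates 1 and 2 (1.31 ± 0.18). Krt18, another keratin gene of simple epithelia, rose by 1.09 ± 0.18. The cortical scaffold gene Phldb2 rose by 1.34 ± 0.19, the serine protease gene Prss23 by 1.30 ± 0.24, the annexin gene Anxa3 by 1.29 ± 0.15 and the polysialyltransferase gene St8sia4 by 1.21 ± 0.18. Tgfb2, a TGF-beta ligand, rose by 1.13 ± 0.16 and Cryab, a small heat shock protein, by 1.09 ± 0.17. Other probe sets gave 1.10 for Prss23, 0.62 and 0.77 for Tgfb2, 0.11 for St8sia4, and 0.47 and 0.09 for Cryab. All 8 passed with array pairs averaged, which choosing genes whose pairs separate alike in every group makes likely. For all 8 the size of the rise depended on the group. Krt18 differed by 1.30 log2 in Tgif1 OE, 1.69 in Tgif2 OE and 0.27 in BirA control cells (limma, interaction adjusted p = 3.51e-04), and Prss23 by 1.71, 2.00 and 0.20 (0.00122).

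**Figure D2:**
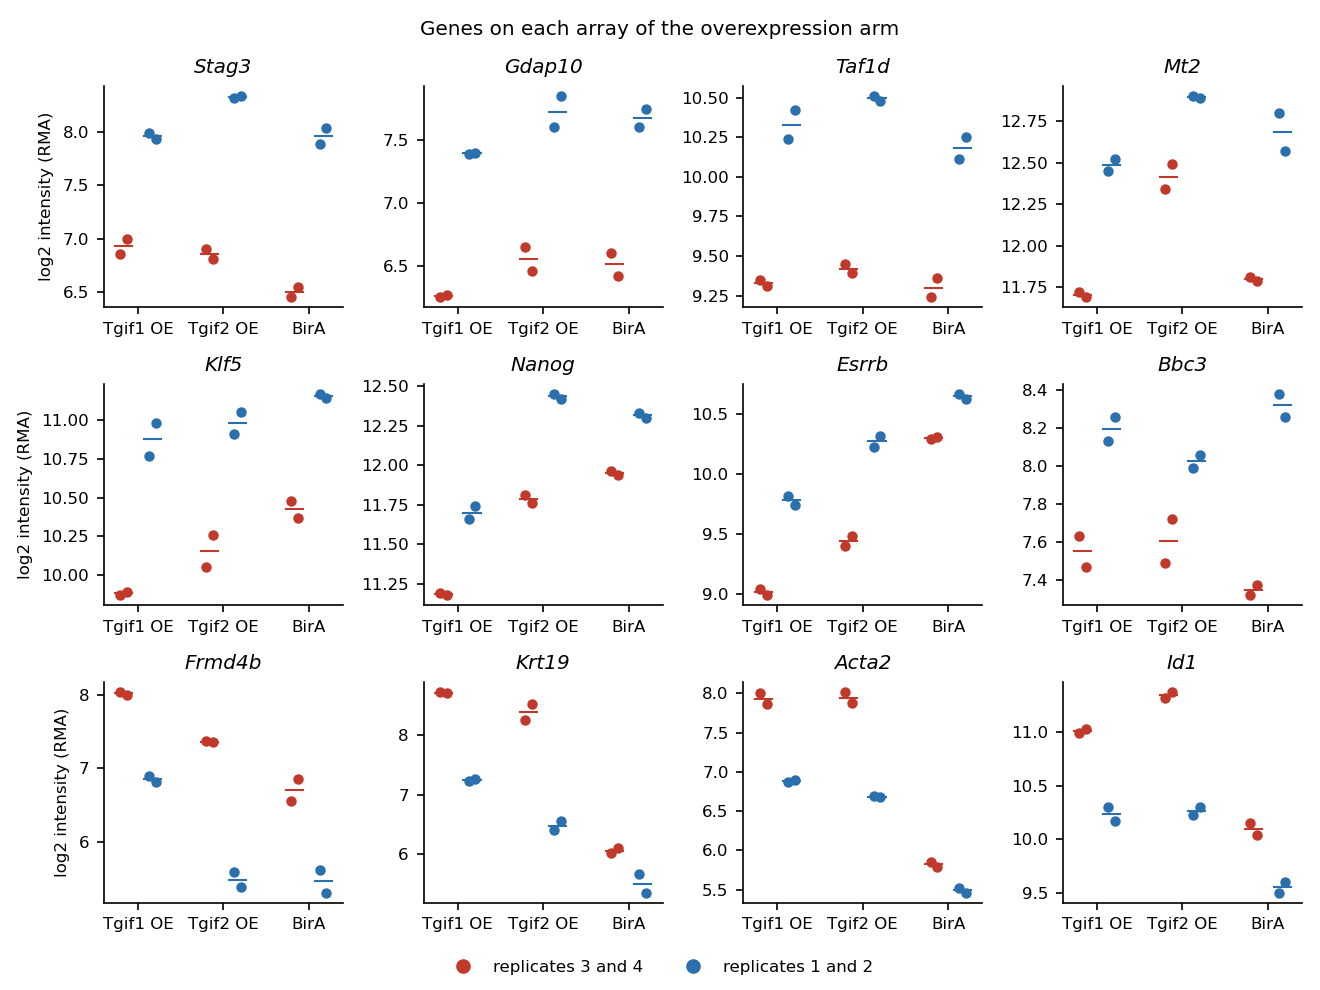
RMA log2 intensity of 12 genes on each array, with replicates 3 and 4 in red left of replicates 1 and 2 in blue and lines at pair means. The 8 genes of the upper 2 rows are lower in replicates 3 and 4 in every group, by 1.32 log2 for Stag3 and 0.51 for Nanog, and the 4 of the bottom row are higher, by 1.43 for Frmd4b and 0.80 for Id1.

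Naive pluripotency genes were lower in replicates 3 and 4, while the difference of Pou5f1 did not pass the threshold. Of 18 measured core and naive genes, 0 rose and 13 fell (0 and 10 with array pairs averaged), with a median of -0.33 log2, against a median of 0.025 and shares of 20.0% higher and 16.1% lower over all genes. Klf5, which holds ES cells in self-renewal, was at 9.87, 10.15 and 10.48 log2, against 10.77, 11.01 and 11.17 log2 in replicates 1 and 2 (-0.85 ± 0.06, adjusted p = 2.94e-06), and its ranges did not overlap. Nanog was at 11.18, 11.79 and 11.96 log2, against 11.66, 12.32 and 12.45 log2 (-0.51 ± 0.05, adjusted p = 1.29e-05), with overlap between groups but none within a group. Esrrb, an orphan nuclear receptor of the naive network, fell by 0.65 ± 0.07 and the T-box factor gene Tbx3 by 0.87 ± 0.17. The other probe set of Esrrb gave -0.32, and that of Tbx3 gave -0.08. Klf4 fell by 0.44 ± 0.07, Zfp42 (Rex1), a classic ES cell marker, by 0.25 ± 0.04, and Sox2 by 0.18 ± 0.04, the last not with array pairs averaged (adjusted p = 0.0845). Pou5f1, at 12.96 to 13.17 log2 in replicates 3 and 4 and 12.93 to 13.18 log2 in replicates 1 and 2, differed by 0.01 ± 0.04 (adjusted p = 0.875).

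The naive genes were lower on the median in every group, and for 8 of the 18, among them Tbx3, Esrrb and Klf4, the size of the difference depended on the group, where it did for 5.16% of all genes. The list's median was -0.34 log2 in Tgif1 OE, -0.35 in Tgif2 OE and -0.19 in BirA control cells. In the model with 6 means, which pools the spread over the 12 arrays, 14, 13 and 7 of 18 genes fell within these groups and 0, 0 and 2 rose, where 9.88%, 12.8% and 10.7% of all genes fell and 9.10%, 13.6% and 14.2% rose. Tbx3 differed by -0.85, -1.54 and -0.21 log2 in Tgif1 OE, Tgif2 OE and BirA control cells (interaction adjusted p = 0.0012), and Esrrb by -0.76, -0.83 and -0.35 (0.0177). Klf5 (0.415) and Nanog (0.118) showed no difference between groups that passed the threshold.

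Genes of the LIF and Stat3 pathway followed in part. Of 13 measured members 2 rose and 6 fell (1 and 5 with pairs averaged), with a median of -0.12 log2. Apart from Stat3 and Klf4, Socs3, the feedback inhibitor that Stat3 induces, fell by 0.32 ± 0.07 and its other probe sets by 0.58 and 0.55. Pim1, a kinase gene that Stat3 also induces, went the other way on the probe set tested, at 9.43 to 9.75 log2 in replicates 3 and 4 against 8.98 to 9.38 log2 in replicates 1 and 2 (0.37 ± 0.05), while its other probe set gave -0.33.

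Genes of the next, formative state did not rise together. Of 16 measured members 5 rose and 4 fell (0 and 2 with pairs averaged), with a median of -0.10 log2. The zinc finger gene Zic2 fell by 0.83 ± 0.08, and Otx2, a factor that leads cells out of the naive state, fell by 0.40 ± 0.04. Pou3f1 (Oct6) rose by 0.44 ± 0.09 and Lef1, a Wnt effector, fell by 0.38 ± 0.10, neither with pairs averaged (adjusted p of 0.0678 and 0.0611). The other probe set of Pou3f1 gave -0.12. Feedback genes of the FGF-ERK pathway gave 4 higher and 2 lower of 13 (1 and 1 with pairs averaged), with the inhibitor Spred1 higher (0.51 ± 0.07) and the transcription factor gene Etv4 lower (-0.46 ± 0.07). Spry4, another inhibitor, fell by 0.23 ± 0.05, not with pairs averaged (0.0983).

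Of 18 trophectoderm and simple epithelium genes 6 rose and 1 fell (2 and 0 with pairs averaged), 38.9% called beside 36.1% of all genes. The rises were led by Krt19, Krt18 and Krt8 (0.91 ± 0.19, limma adjusted p = 0.0616 with pairs averaged), which mark simple epithelia of many kinds. Within Tgif1 OE, Tgif2 OE and BirA control cells 9, 11 and 3 of the list rose and 0, 0 and 4 fell. Of all genes 9.10%, 13.6% and 14.2% rose and 9.88%, 12.8% and 10.7% fell. The list's medians were 0.22, 0.40 and -0.07 log2, and 9 of the 18 genes passed the interaction test. Cdx2, the trophectoderm factor, was at 5.03 to 6.02 log2 in replicates 3 and 4 and 4.92 to 5.66 log2 in replicates 1 and 2 (0.39 ± 0.11, 0.0761 with pairs averaged). Its other probe set gave -0.17. Of 14 neuroectoderm genes 5 rose and 1 fell (1 and 0 with pairs averaged), 42.9% called beside 36.1% of all genes. Neurod1, a proneural factor, rose by 0.83 ± 0.08 and by 0.95 on its other probe set. Sox11 rose (0.35 ± 0.08) and the neuronal tubulin gene Tubb3 fell (-0.42 ± 0.09), neither with pairs averaged (0.0686 and 0.0603).

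Primitive endoderm genes gave 3 higher and 1 lower of 20 (2 and 0 with pairs averaged), 20% called beside 36.1% of all genes. Cited1 rose by 0.60 ± 0.12. Foxa2, an endoderm factor, rose by 0.26 ± 0.06 on a dim probe set (4.74 to 5.16 log2, against 4.53 to 4.74). Sox7, an early endoderm factor, fell by 0.42 ± 0.11 and Fst, the activin antagonist, rose by 0.25 ± 0.06, neither with pairs averaged (0.107 and 0.108). Mesoderm and primitive streak genes gave 1 higher and 3 lower of 15 (0 and 1), 26.7% called beside 36.1% of all genes. The homeobox gene Gsc differed by -0.27 ± 0.05 on a dim probe set (3.55 to 4.04 log2, against 3.91 to 4.33). The 7 measured 2-cell-stage genes gave 0 higher and 1 lower (0 and 0), the 1 being Eif1a (-0.18 ± 0.04, 0.127 with pairs averaged).

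Contractile genes had the highest median of the 35 lists. Of 22 actomyosin and focal adhesion genes 12 rose and 1 fell (5 and 1 with pairs averaged), with a median of 0.28 log2. Tagln, an actin-binding protein of smooth muscle, was at 7.08, 10.44 and 10.91 log2 in replicates 3 and 4, against 6.65, 8.74 and 10.15 log2 in replicates 1 and 2 (0.97 ± 0.17, adjusted p = 9.39e-04). Acta2, smooth muscle actin, rose by 0.88 ± 0.12 and Cald1, caldesmon, by 0.85 ± 0.15. Other probe sets gave 0.11 for Acta2 and 0.65 and 0.51 for Cald1. The sets overlapped over all groups, since BirA control arrays were low for all of these genes, but not within a group. Myl9, a myosin light chain, rose by 0.66 ± 0.17, not with pairs averaged (0.0741). The list's median was 0.19 log2 in Tgif1 OE, 0.58 in Tgif2 OE and 0.03 in BirA control cells, and 11 of the 22 genes differed between groups in the size of the change, where 5.16% of all genes did. Targets of YAP and TEAD, which also answer to cell spreading, gave 3 higher and 1 lower of 12 (1 and 0 with pairs averaged). That is 33.3% called beside 36.1% of all genes. Ankrd1 rose by 0.56 ± 0.12 on a dim probe set (3.27 to 4.60 log2, against 3.17 to 3.92). Ccn2 (0.39 ± 0.09) and Amotl2 (0.26 ± 0.07) rose, but not with pairs averaged (0.0763 and 0.0963).

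Immediate early and serum response genes moved both ways, 4 higher and 5 lower of 18 (2 and 3 with pairs averaged), 50% called beside 36.1% of all genes. Within Tgif1 OE, Tgif2 OE and BirA control cells 5, 9 and 1 rose and 3, 3 and 4 fell. Of all genes 9.10%, 13.6% and 14.2% rose and 9.88%, 12.8% and 10.7% fell within these groups. Fos fell by 0.43 ± 0.08 and Zfp36, which destabilizes AU-rich mRNAs, by 0.42 ± 0.05, while the antiproliferative gene Btg2 rose by 0.49 ± 0.09. The other probe set of Btg2 gave 0.01. Genes with unstable transcripts, a list that shares several members with other lists, gave 8 higher and 4 lower of 17 (3 and 3). That is 70.6% called beside 36.1% of all genes. Within Tgif1 OE, Tgif2 OE and BirA control cells 7, 10 and 4 rose and 3, 3 and 2 fell. The list's medians were 0.10, 0.45 and -0.07 log2. For 8 of the 17 genes the size of the difference depended on the group, where it did for 5.16% of all genes.

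Of 12 measured BMP targets 5 rose and 0 fell (3 and 0 with pairs averaged). That is 41.7% called beside 36.1% of all genes (20.0% higher and 16.1% lower). The median was 0.23 log2, with group medians of 0.16 in Tgif1 OE, 0.19 in Tgif2 OE and 0.24 in BirA control cells. Within these groups 4, 4 and 5 rose and 1, 1 and 0 fell. Of all genes 9.10%, 13.6% and 14.2% rose and 9.88%, 12.8% and 10.7% fell there. Id1, a dominant inhibitor of basic helix-loop-helix factors, was at 10.04, 11.01 and 11.38 log2, against 9.50, 10.20 and 10.30 log2 in replicates 1 and 2 (0.80 ± 0.08, adjusted p = 1.87e-05). Its relative Id3 rose by 0.33 ± 0.04. Id2 (0.60 ± 0.15) and the ligand gene Bmp4 (0.32 ± 0.06) rose, but not with pairs averaged (0.0973 and 0.0557). Wnt targets gave 3 higher and 2 lower of 10 (2 and 0), and Sp5, a direct target of beta-catenin, was at 7.20, 8.19 and 8.65 log2 in replicates 3 and 4, against 6.13, 6.92 and 8.15 log2 in replicates 1 and 2 (0.97 ± 0.10, adjusted p = 2.71e-05). The cyclin gene Ccnd1 rose by 0.27 ± 0.04.

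Of 11 Nodal and TGF-beta targets 3 rose and 0 fell (1 and 0 with pairs averaged), 27.3% called beside 36.1% of all genes, with the Smad corepressor gene Skil at 0.40 ± 0.06. Within Tgif1 OE, Tgif2 OE and BirA control cells 2, 2 and 4 rose and 2, 2 and 0 fell. Of all genes 9.10%, 13.6% and 14.2% rose and 9.88%, 12.8% and 10.7% fell. Retinoic acid response genes gave 4 higher and 2 lower of 12 (1 and 2). The binding protein gene Crabp1 fell by 0.49 ± 0.06 and the homeobox gene Meis2 by 0.48 ± 0.07, Tgm2, a transglutaminase, rose by 0.45 ± 0.10, and Crabp2 rose by 0.49 ± 0.10, not with pairs averaged (0.0576).

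Germline genes, several of which DNA methylation keeps silent in somatic cells, moved both ways. The germline list gave 4 higher and 4 lower of 16 (0 and 4 with pairs averaged), where 20.0% of all genes were higher and 16.1% lower. Its falls were larger than its rises, which reached 0.27 log2, and the 4 genes named next are the falls. Dazl, a germ cell RNA-binding protein, was at 5.77, 6.29 and 6.82 log2 in replicates 3 and 4, against 6.28, 7.47 and 7.57 log2 in replicates 1 and 2 (-0.82 ± 0.09). Sycp3, a part of the synaptonemal complex, fell by 0.70 ± 0.05 and Tex19.1, a germline and placenta gene, by 0.48 ± 0.05. Hormad1, a meiotic chromosome axis protein, fell by 0.66 ± 0.10 on a dim probe set (2.93 to 4.20 log2, against 3.37 to 4.99). Among 9 genes of DNA methylation and demethylation 2 rose and 4 fell (0 and 3). Tet1, which oxidizes methylcytosine, fell by 0.46 ± 0.05, although its other probe set gave 0.11. Uhrf1, which brings Dnmt1 to replicating DNA, fell by 0.42 ± 0.04 and by 0.73 on its other probe set.

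Imprinted genes gave 6 higher and 4 lower of 18 (4 and 3 with pairs averaged). Meg3, a maternally expressed long non-coding RNA, was at 9.15 to 9.30 log2 in replicates 3 and 4, against 9.59 to 9.82 log2 in replicates 1 and 2 (-0.46 ± 0.05), and its other 4 probe sets were lower by 0.16 to 0.63. Phlda2 rose by 0.41 ± 0.04, and the paternally expressed genes Ndn and Peg3 rose by 0.45 ± 0.08 and 0.39 ± 0.07. The other probe sets of Ndn gave 0.05 to 0.79, and those of Peg3 gave -0.14 and 0.38.

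**Figure D3:**
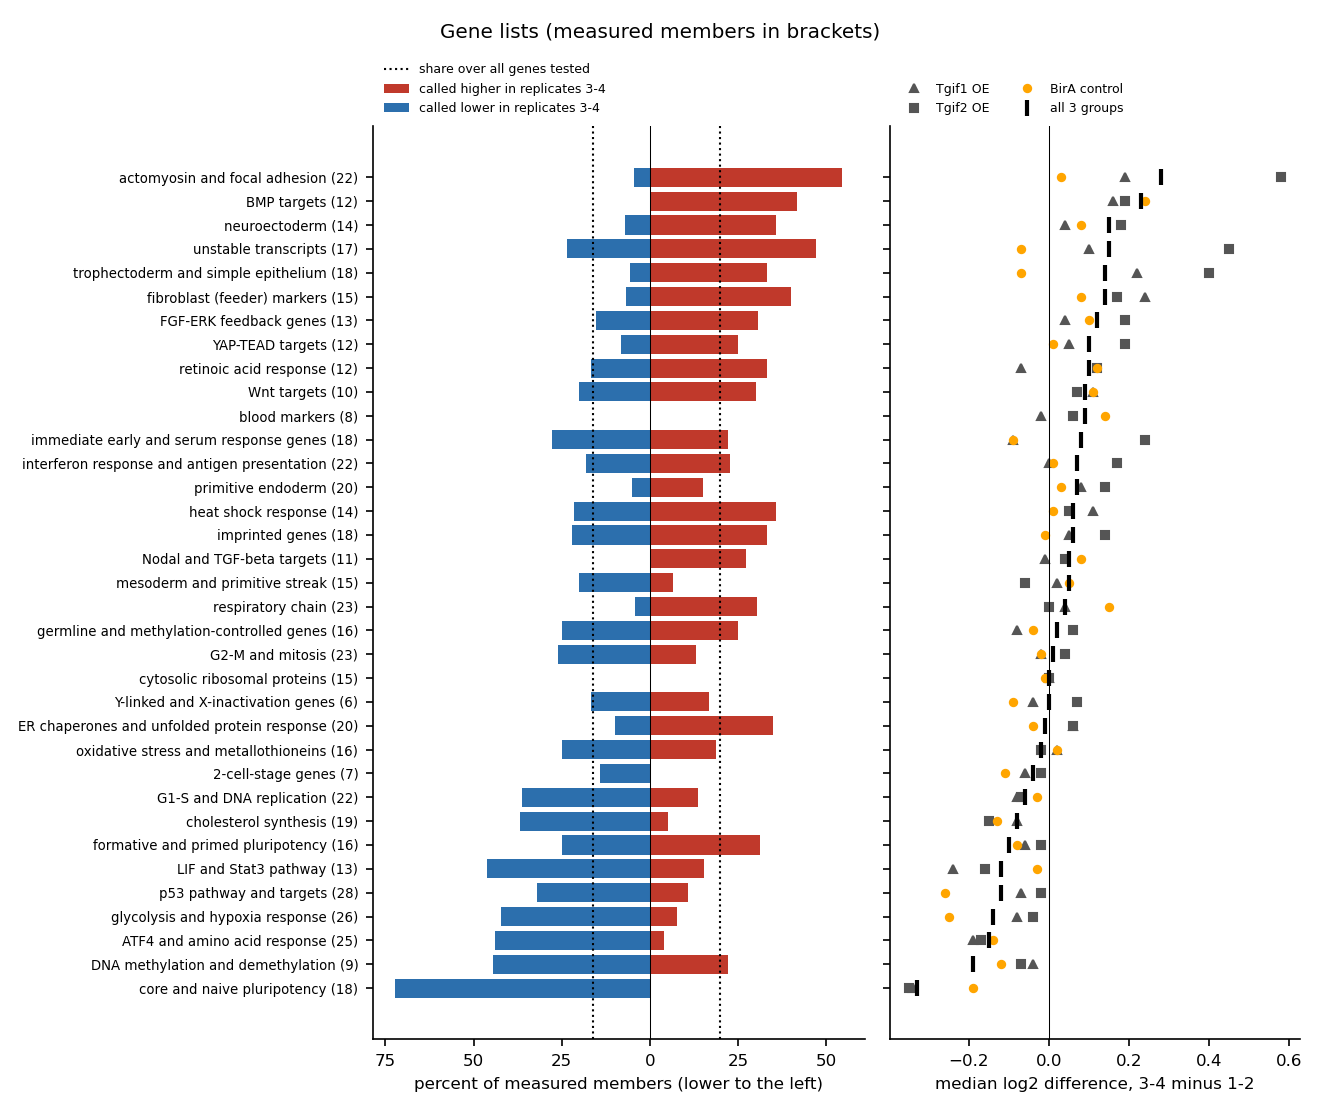
Left, percent of the measured members of 35 gene lists (number in brackets) that were called higher (red) or lower (blue, drawn to the left) in replicates 3 and 4, with dotted lines at the share over all 12393 genes, 20.0% higher and 16.1% lower. Right, median log2 difference of each list in each group and over all 3 groups. Core and naive pluripotency stands lowest with a median of -0.33, and actomyosin and focal adhesion highest with 0.28.

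The p53 targets did not move as one, and more of them fell than rose. Of 28 measured members of the p53 list, 3 rose and 9 fell (2 and 5 with pairs averaged), with a median of -0.12 log2, and 42.9% were called beside 36.1% of all genes. Trp53 itself was not analysed here. The most used readouts did not pass: Cdkn1a, the p21 cell cycle inhibitor, was at 8.60, 8.72 and 9.00 log2 in replicates 3 and 4 against 8.64, 8.94 and 9.09 log2 in replicates 1 and 2 (-0.14 ± 0.06, adjusted p = 0.0755, and 0.0252 without BirA control replicate 2). Mdm2, the ubiquitin ligase that limits p53, differed by -0.16 ± 0.09 (0.193), and Ccng1, cyclin G1, by -0.11 ± 0.11 (0.501). Bbc3, which encodes the apoptosis inducer Puma, was at 7.32, 7.48 and 7.72 log2 in replicates 3 and 4, against 7.99, 8.19 and 8.38 log2 in replicates 1 and 2 (-0.68 ± 0.08, adjusted p = 9.16e-05). Its ranges did not overlap.

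Sesn2, a stress sensor that answers to p53 and to ATF4, fell by 0.64 ± 0.08, and Gadd45a, a growth arrest gene, by 0.30 ± 0.04. Perp, a p53 target and a part of desmosomes in epithelia, rose by 0.69 ± 0.12, and Btg2 rose as given above. The list depended on the group. In the model with 6 means, 4, 9 and 2 of the 28 genes rose within Tgif1 OE, Tgif2 OE and BirA control cells, and 6, 6 and 16 fell. Of all genes 9.10%, 13.6% and 14.2% rose and 9.88%, 12.8% and 10.7% fell. The list's medians were -0.07, -0.02 and -0.26 log2, beside all-gene medians of 0.009, 0.009 and 0.051. Mdm2 was at 9.34 and 9.24 log2 in BirA control replicates 3 and 4, against 9.95 and 9.68 log2 in replicates 1 and 2 (-0.52 ± 0.08), while it differed by 0.02 in Tgif1 OE and 0.04 in Tgif2 OE cells (interaction adjusted p = 0.0373). Ccng1 fell by 0.60 ± 0.07 in BirA control cells and differed by 0.04 in Tgif1 OE and 0.24 in Tgif2 OE cells (0.00483). In all, 9 of the 28 genes differed between groups, where 5.16% of all genes did.

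Of 25 ATF4 and amino acid response genes 1 rose and 11 fell (0 and 5 with pairs averaged), with a median of -0.15 log2 and like medians in the groups (-0.19 in Tgif1 OE, -0.17 in Tgif2 OE and -0.14 in BirA control cells). Besides Chac1 and Sesn2, the serine pathway enzyme gene Shmt2 fell by 0.39 ± 0.05 and by 0.22 to 0.45 on its other 3 probe sets, and Asns, asparagine synthetase, by 0.35 ± 0.04. Of 20 ER chaperone genes 7 rose and 2 fell (2 and 2), 45% called beside 36.1% of all genes, with a median of -0.01 log2. Within Tgif1 OE, Tgif2 OE and BirA control cells 4, 4 and 1 of them rose and 2, 2 and 5 fell. Of all genes 9.10%, 13.6% and 14.2% rose and 9.88%, 12.8% and 10.7% fell within these groups. Syvn1, an ER ubiquitin ligase, fell by 0.47 ± 0.05 together with Herpud1, while the folding genes Pdia3 and Sdf2l1 rose by 0.30 ± 0.05 and 0.29 ± 0.06.

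Heat shock genes gave 5 higher and 3 lower of 14 (3 and 1 with pairs averaged). Apart from Cryab, the co-chaperone gene Bag3 fell by 0.44 ± 0.06. The inducible Hsp70 genes Hspa1a (-0.61 ± 0.17) and Hspa1b (-0.44 ± 0.11) fell but not with pairs averaged (0.0849 and 0.0683), and they are near-identical, so their probe sets cannot fully tell them apart.

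Metallothioneins, small proteins that bind zinc and copper and whose genes are switched on by zinc through the factor Mtf1, were lower. Mt1 was at 11.13, 11.26 and 11.86 log2 in replicates 3 and 4, against 11.85, 12.11 and 12.50 log2 in replicates 1 and 2 (-0.72 ± 0.11, adjusted p = 4.34e-04). Mt2 was at 11.69, 11.80 and 12.49 log2, against 12.45, 12.68 and 12.90 log2 (-0.71 ± 0.07, adjusted p = 1.71e-05). Both genes were lower in replicates 3 and 4 in all 3 groups, by 0.78 in Tgif1 OE, 0.48 in Tgif2 OE and 0.89 in BirA control cells for Mt2. For Mt1 the falls were 0.70, 0.33 and 1.12, and the one in Tgif2 OE cells did not pass (limma, adjusted p = 0.056). The size of the Mt1 fall depended on the group (interaction adjusted p = 0.0452), and its other probe set gave -0.20. The promoters of Mt1 and Mt2 are shown because the genes move together and hold the core of the metal response element. The windows run from 250 bases before to 50 after the RefSeq gene start in GRCm38.p6, both on the plus strand, at chr8:94178839-94179138 for Mt1 and chr8:94172368-94172667 for Mt2. Capitals mark TGCACNC or TGCGCNC on either strand, a motif chosen after the data were seen.
Mt1: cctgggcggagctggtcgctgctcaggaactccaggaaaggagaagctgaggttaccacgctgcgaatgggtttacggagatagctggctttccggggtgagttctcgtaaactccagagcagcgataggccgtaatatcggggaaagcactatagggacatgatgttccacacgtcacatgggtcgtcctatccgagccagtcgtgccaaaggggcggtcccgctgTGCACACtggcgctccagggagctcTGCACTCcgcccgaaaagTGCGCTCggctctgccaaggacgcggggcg
Mt2: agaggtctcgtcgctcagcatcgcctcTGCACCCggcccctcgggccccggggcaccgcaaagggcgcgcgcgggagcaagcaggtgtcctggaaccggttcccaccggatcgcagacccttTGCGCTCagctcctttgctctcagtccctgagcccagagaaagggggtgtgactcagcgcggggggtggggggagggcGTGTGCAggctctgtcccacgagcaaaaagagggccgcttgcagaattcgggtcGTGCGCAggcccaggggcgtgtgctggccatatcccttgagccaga
The Mt1 window held 3 matches and the Mt2 window 4, and 25.7% of the 32851 promoters in the table held at least 1. A match describes the sequence and does not show that the site is used. The rest of the oxidative stress and metallothionein list was mixed: 3 rose and 4 fell of 16 (0 and 3 with pairs averaged). Gclc, the rate-limiting enzyme of glutathione synthesis, fell by 0.64 ± 0.05, and the glutathione transferase gene Gstm1 rose by 0.30 ± 0.08, not with pairs averaged (0.095).

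Of 26 measured glycolysis and hypoxia genes 2 rose and 11 fell (1 and 8 with pairs averaged), with a median of -0.14 log2, and 13 were not called. Within Tgif1 OE, Tgif2 OE and BirA control cells 2, 7 and 2 rose and 9, 8 and 13 fell, with medians of -0.08, -0.04 and -0.25 log2. Of all genes 9.10%, 13.6% and 14.2% rose and 9.88%, 12.8% and 10.7% fell within these groups. Pfkl and Pfkp, subunits of phosphofructokinase, fell by 0.64 ± 0.05 and 0.63 ± 0.05, and Kdm3a, a histone demethylase induced by hypoxia, by 0.48 ± 0.05. The other probe set of Pfkl gave -0.56, and that of Pfkp gave -0.07. Bnip3, a mitophagy receptor induced by hypoxia, was at 8.83 and 9.11 log2 in BirA control replicates 3 and 4, against 10.37 and 10.37 log2 in replicates 1 and 2, and its fall of 1.40 there compared with -0.38 in Tgif1 OE and -0.17 in Tgif2 OE cells (interaction adjusted p = 0.00122). Over all groups it fell by 0.65 ± 0.16, not with pairs averaged (0.0935). Respiratory chain genes gave 7 higher and 1 lower of 23 (2 and 0), 34.8% called beside 36.1% of all genes, and 2, 3 and 8 were higher within Tgif1 OE, Tgif2 OE and BirA control cells. Those called over all groups include the succinate dehydrogenase genes Sdhb (0.30 ± 0.04) and Sdha (0.24 ± 0.04). Cox5b (0.28 ± 0.06) rose and Sdhc (-0.28 ± 0.07) fell, neither with pairs averaged (0.0686 and 0.12). The mitochondrially encoded gene ND5, the 1 measured gene of that genome, fell by 0.74 ± 0.09. Cholesterol genes gave 1 higher and 7 lower of 19 (0 and 3), 42.1% called beside 36.1% of all genes. Dhcr7, the last enzyme of the pathway, fell by 0.40 ± 0.06, the sterol carrier gene Stard4 by 0.34 ± 0.05 and the regulator gene Srebf2 by 0.28 ± 0.05, and Acly, which makes cytosolic acetyl-CoA, by 0.23 ± 0.05, the last not with pairs averaged (0.0678).

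Of 22 G1-S and replication genes 3 rose and 8 fell (2 and 3 with pairs averaged), with a median of -0.06 log2. The replicative helicase gene Mcm5 fell by 0.42 ± 0.05 and Tyms, thymidylate synthase, by 0.36 ± 0.06 on a dim probe set, while the inhibitor gene Cdkn1b (p27) rose by 0.33 ± 0.09. Of 23 G2-M genes 3 rose and 6 fell (0 and 1), 39.1% called beside 36.1% of all genes, with a median of 0.01 log2. The mitotic kinase gene Plk1 differed by -0.33 ± 0.05. Kif11 (-0.23 ± 0.05) and Bub1 (-0.18 ± 0.03), a spindle motor and a checkpoint kinase, fell, but not with pairs averaged (0.0576 and 0.0991). Of 15 cytosolic ribosomal protein genes 0 passed in limma, and their differences lay between -0.06 and 0.07 log2.

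Interferon and antigen presentation genes gave 5 higher and 4 lower of 22 (4 and 3 with pairs averaged), 40.9% called beside 36.1% of all genes. The interferon-induced GTPase gene Gbp2 was at 5.85, 8.75 and 9.13 log2 in replicates 3 and 4, against 5.42, 7.34 and 8.46 log2 in replicates 1 and 2 (0.83 ± 0.14). B2m, the light chain of MHC class I, rose by 0.51 ± 0.05 and Ifit2 by 0.47 ± 0.07, while Ifitm2, which keeps viruses from fusing with the cell, fell by 0.52 ± 0.05.

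Markers of other cells that a culture could hold were measured as well. The mean of 15 fibroblast (feeder cell) markers was 5.29 to 5.65 log2 in replicates 3 and 4 and 5.21 to 5.50 log2 in replicates 1 and 2. Of the 15, 6 rose and 1 fell (3 and 0 with pairs averaged), and 46.7% were called beside 36.1% of all genes. Differences over the list ran from -0.26 to 0.69 log2. Within Tgif1 OE, Tgif2 OE and BirA control cells 4, 2 and 1 rose and 1, 2 and 1 fell. Of all genes 9.10%, 13.6% and 14.2% rose and 9.88%, 12.8% and 10.7% fell within these groups. The markers named here are all among the rises. They include the collagen genes Col5a2 (0.69 ± 0.11) and Col1a2 (0.27 ± 0.08). Vim, vimentin, was bright, at 10.23 to 10.84 log2 in replicates 3 and 4 and 9.72 to 10.70 log2 in replicates 1 and 2, and rose by 0.24 ± 0.06, not with pairs averaged (0.11). The mean of 8 blood markers was 4.31 to 4.53 log2 and 4.28 to 4.41 log2, and 0 of 8 passed. The mean of 9 ES cell markers was 11.91 to 12.31 log2 in replicates 3 and 4 and 12.17 to 12.48 log2 in replicates 1 and 2. In bulk RNA, fewer cells of a type and less RNA per cell cannot be told apart, and the part of such cells in the differences above was not tested.

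Differences between the sets varied with the group for 639 genes (5.16%), by a test of the interaction over the 3 groups. This test rests on the spread within pairs, since averaging the pairs leaves no replicate for it. The difference differed between Tgif1 OE and BirA control cells for 404 genes (3.26%), between Tgif2 OE and BirA control cells for 628 (5.07%), and between Tgif1 OE and Tgif2 OE cells for 87 (0.702%). The first 2 of these share the BirA control arrays. The 5 genes with the smallest adjusted p were Nefm, Anxa2, Tmem40, Dsp and Uty.

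Nefm, a neurofilament gene, was at 8.16 and 8.20 log2 in replicates 3 and 4 of Tgif1 OE, against 6.59 and 6.59 in replicates 1 and 2. In Tgif2 OE cells it was at 8.39 and 8.50 log2, against 6.72 and 6.75, and in BirA control cells at 5.74 and 5.60, against 5.94 and 6.08. Its differences were 1.59, 1.71 and -0.34 log2 in that order (interaction adjusted p = 4.66e-05), and over all groups it rose by 0.99 ± 0.28, not with pairs averaged (0.124). Anxa2, an annexin, differed by 0.87 log2 in Tgif1 OE, 1.02 in Tgif2 OE and -1.29 in BirA control cells, where it was at 6.92 and 6.92 log2 against 8.32 and 8.09 log2. Dsp, desmoplakin of desmosomes, differed by 0.75, 0.73 and -0.64 log2 in the same order. Tmem40 fell in the BirA control group by 1.76 ± 0.06. It was at 7.35 and 7.33 log2 in replicates 3 and 4, against 9.03 and 9.16 in replicates 1 and 2, and at 7.17 to 7.77 on all 8 arrays of the other groups (differences of -0.06 in Tgif1 OE and -0.07 in Tgif2 OE).

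Uty, a histone demethylase gene of the Y chromosome, was at 7.50 and 7.62 log2 in replicates 3 and 4 of Tgif1 OE, against 6.54 and 6.51 in replicates 1 and 2. In Tgif2 OE cells it was at 7.67 and 7.61 log2, against 6.10 and 6.19, and in BirA control cells at 7.25 and 7.29, against 7.42 and 7.42 (interaction adjusted p = 6.02e-05). Replicates 1 and 2 of the Tgif1 OE and Tgif2 OE groups stood below all 8 other arrays. Eif2s3y, the other Y-linked gene of the brighter genes, which encodes a translation initiation factor subunit, was looked up after Uty was seen. It had the same order, with 10.18 and 10.19 against 9.87 and 9.87 in Tgif1 OE, 10.58 and 10.58 against 9.77 and 9.72 in Tgif2 OE, and 9.99 and 10.00 against 10.24 and 10.15 log2 in BirA control cells. The remaining 6 Y-linked genes were dim, with means of 3.24 to 5.28 log2, and did not share this order as a group. Uba1y was at 4.65 and 4.77 against 4.63 and 4.37 log2 in Tgif1 OE, 5.49 and 5.61 against 5.40 and 5.44 in Tgif2 OE, and 4.66 and 4.87 against 6.32 and 5.97 in BirA control cells (limma, interaction adjusted p = 0.00235), so its high arrays were BirA control replicates 1 and 2. Xist, the RNA of X inactivation that male cells keep low, was at 5.97 to 6.45 log2 in replicates 3 and 4, against 6.17 to 6.90 log2 in replicates 1 and 2 (-0.30 ± 0.06). Of 6 measured Y-linked and X-inactivation genes 1 rose, Uty, and 1 fell (0 and 1 with pairs averaged, where Uty has an adjusted p of 0.103), and 33.3% were called beside 36.1% of all genes. DNA copy number was not measured, so a smaller share of cells with a Y chromosome and a lower level per cell cannot be told apart.

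By chromosome, medians over all 3 groups were even, between 0.005 and 0.055 log2 on the autosomes and X. Among the medians within groups, chromosome 1 in BirA control cells stood highest. There the median difference over 708 genes was 0.138 log2, where genes on other chromosomes had 0.045, and it was 0.023 in Tgif1 OE and 0.026 in Tgif2 OE cells. In BirA control cells 76.3% of chromosome 1 genes had a positive difference, against 58.8% of other genes, and 28.8% passed as higher, against 13.3%. The shift ran along the whole chromosome: over 8 parts with equal numbers of genes in order of position, the medians lay between 0.117 and 0.172. It was looked for in each array after this was seen. Over the 447 brighter genes of chromosome 1, the median deviation from the 12-array mean was -0.017 and -0.020 log2 on BirA control replicates 3 and 4, against -0.170 and -0.151 on replicates 1 and 2. It was 0.020 to 0.062 on the 8 arrays of the other groups, and other chromosomes (apart from Y) stayed between -0.046 and 0.038 on all 12 arrays. These values are given with no test, and whether the DNA of these cells differed was not tested.

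**Figure D4:**
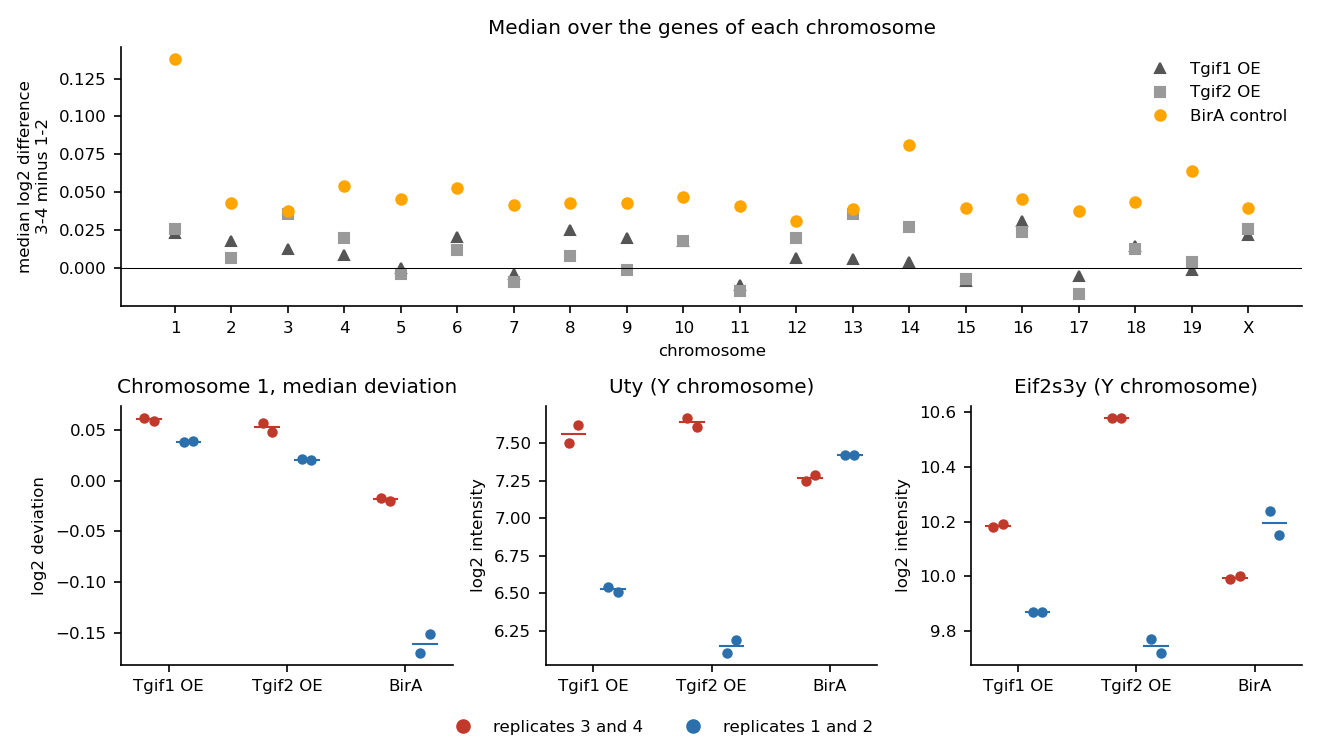
Top, median log2 difference (replicates 3 and 4 minus 1 and 2) of the genes of each chromosome in Tgif1 OE, Tgif2 OE and BirA control cells. Bottom, the median log2 deviation of chromosome 1 genes and the log2 intensities of Uty and Eif2s3y on each array, with replicates 3 and 4 in red and 1 and 2 in blue. Chromosome 1 in BirA control cells stands at 0.138, and both Y-linked genes are lowest on replicates 1 and 2 of Tgif1 OE and Tgif2 OE.

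RNA quality measures differed between the sets, and by little. The 5′ minus 3′ difference of Gapdh was -0.08, -0.05 and -0.02 log2 (lowest, median and highest) in replicates 3 and 4, against -0.34, -0.18 and -0.11 log2 in replicates 1 and 2. The difference of 0.15 reached the smallest p that exact two-sided permutation of the arrays within groups can give, 0.00926 (0.0417 adjusted over 9 measures). For Actb the values were -0.48, -0.45 and -0.39 log2, against -0.67, -0.55 and -0.50 log2 (0.12, the same exact p). All 6 arrays of replicates 3 and 4 lay above all 6 of replicates 1 and 2 for both transcripts, so the 5′ ends were relatively brighter there. The test takes the 2 arrays of a pair as separate. With pairs as units it has 8 arrangements and cannot go below 0.25. For 18S rRNA the difference was 0.35 log2, for pyruvate carboxylase 0.20 and for the transferrin receptor 0.23 (exact permutation p of 0.0278, 0.0278 and 0.037, adjusted 0.05, 0.05 and 0.0556).

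Probe sets for control RNAs that do not come from the cells differed more. The 4 poly-A control transcripts of Bacillus subtilis (dap, lys, phe and thr) are usually added to the sample RNA before labelling, and the labels do not say whether they were. Their mean was 7.15, 7.42 and 8.07 log2 in replicates 3 and 4, against 8.65, 8.81 and 9.41 log2 in replicates 1 and 2. It was lower by 1.34 log2, and by 1.43 in Tgif1 OE, 1.48 in Tgif2 OE and 1.13 in BirA control cells (exact permutation p = 0.00926, 0.0116 adjusted over 10 measures). The sets did not overlap for any of the 4. On the 4 arrays of the knockdown arm, which are numbered 1 and 2, the mean was 8.17 to 8.91 log2, above the highest array of replicates 3 and 4, and 8.17 and 8.55 log2 on the Tgif1 KD arrays lay below the lowest of replicates 1 and 2. Hybridization controls (bioB, bioC, bioD and cre), added to the labelled mixture, were lower by a mean of 0.28 log2, and bioD by 0.52. The 5′ minus 3′ differences of the poly-A controls were 0.01 for dap, -0.26 for lys, -0.17 for phe and -0.04 for thr over all groups. They went both ways between groups for dap (0.27 in Tgif1 OE, -0.21 in Tgif2 OE and -0.04 in BirA control cells) and thr (0.53, -0.29 and -0.36).

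The probe set for B1 repeats, short elements found in many nuclear and unprocessed RNAs, was at 12.13, 12.27 and 12.67 log2 in replicates 3 and 4, against 12.57, 12.74 and 13.28 log2 in replicates 1 and 2 (-0.50 log2, exact permutation p = 0.00926, 0.0278 adjusted over 3 measures). B2 repeats differed by -0.02 log2, near the top of the scale, and 18S rRNA by -0.26 (exact permutation p = 0.037 for both). Adding the mean 5′ minus 3′ difference of Gapdh and Actb as a covariate left 1038 genes with a difference between the sets, in place of 4473. The array set itself accounts for 80.9% of that covariate's variance within groups, so the effects of the set and of 5′ signal on a gene cannot be told apart in that fit. Under it 3 of the 13 naive genes called lower still passed as lower, from 18 measured. Of the 28 measured p53 list genes 7 passed as lower, and 0 genes of either list passed as higher. Beside these stand the 1038 of all 12393 genes that passed in either direction. A difference between these lists, or between them and all genes, was not tested in that fit.

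**Figure D5:**
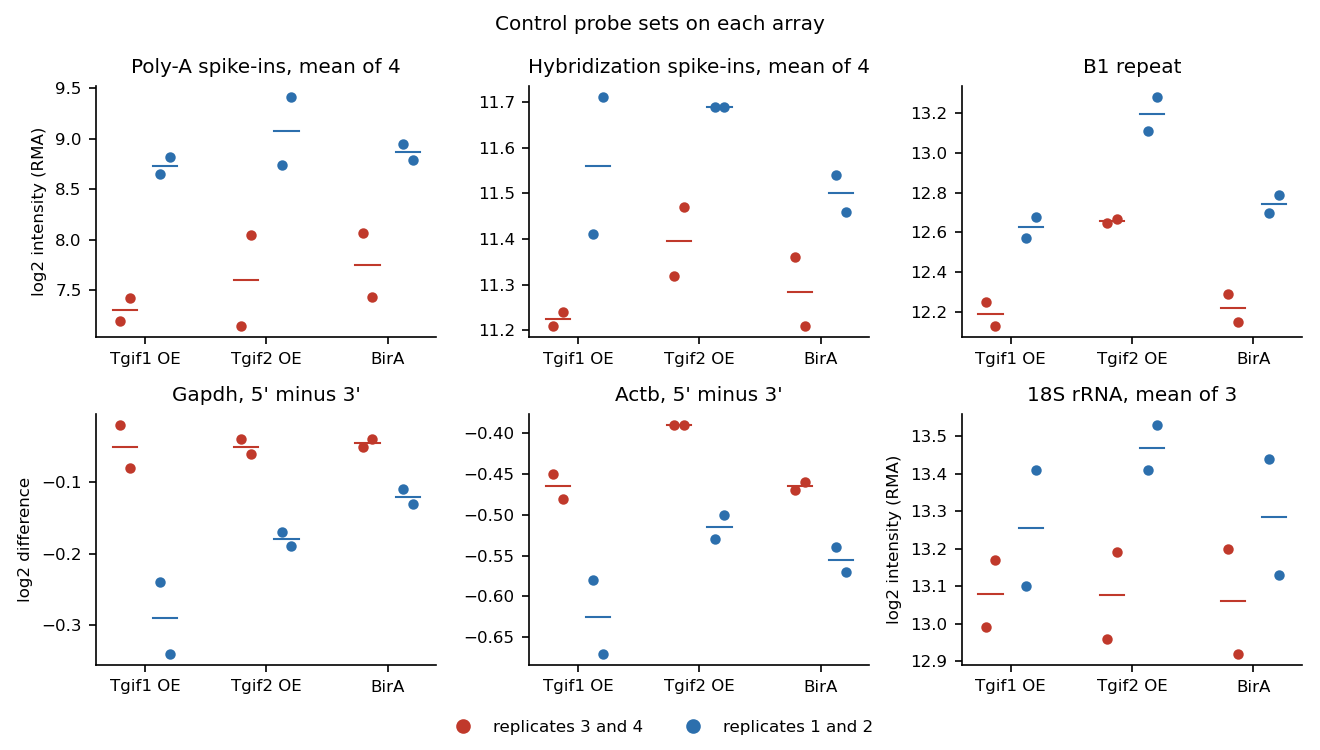
Control measures on each array, with replicates 3 and 4 in red left of replicates 1 and 2 in blue and lines at pair means. Upper panels and the last panel show mean log2 intensities of poly-A spike-ins, hybridization spike-ins, B1 repeats and 18S rRNA, and the others the log2 difference between the 5′ and 3′ probe sets of Gapdh and Actb. The poly-A spike-ins are lower in replicates 3 and 4, by 1.34 log2, and both 5′ minus 3′ differences higher, by 0.15 and 0.12.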

How the data were processed

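RNA of the 12 arrays was hybridized to Affymetrix Mouse 430A 2.0 arrays, per the labels. Per the submitters' processing notes, the authors used RMA to make the deposited log2 intensity of each probe set, and the notes for the Tgif2 OE arrays add limma. Their versions were not given in the sources used here. Values were used as deposited, with no filter on dim genes and without detection calls. Precision is limited by how few arrays there are.

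Of 22690 probe sets, 64 were controls, 20380 had 1 gene symbol in a 2016 annotation, 691 had several and 1555 had none. For each of 12393 genes the probe set of highest mean intensity was tested, and 4956 genes had more than 1. The symbol does not exclude hybridization to relatives of a gene.

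Group and array set were fitted with limma 3.58.1 in R 4.3.3 (8 residual degrees of freedom), with moderated tests, Benjamini-Hochberg adjustment over all genes and a threshold of 0.05. Within-group differences and the interaction came from a model with 6 means. The fit was tested on simulated data. Control probe sets were compared by exact two-sided permutation of the set labels within groups, adjusted within families of 5′ to 3′ differences, spike-ins and other RNAs.

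Members and the 35 gene lists (643 entries, 602 genes, 534 measured) were chosen with earlier results of these data known. Genes were named by a rule: the 12 largest rises and 12 largest falls whose arrays did not overlap within any group, up to 4 called members per list with the largest differences, 12 fixed genes, the 5 smallest interaction p-values, and the 3 brightest genes of any chromosome whose median stood over 0.1 log2 from that of all genes. Of these, 10 were passed over after their values were seen, because their call changed when 1 array was left out. Protein length was not analysed here, and genomic span was used in its place. Promoters are from RefSeq, GRCm38.p6.

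Arrays with the same replicate number were checked for pairing. Their deviations from group means correlated at 0.32 to 0.56 over 12 comparisons, and arrays of the same set with another number at 0.32 to 0.58. After the means of group and set were removed, same-number correlations were -0.18 to 0.00 over 6 comparisons, so the numbers did not pair the arrays beyond the sets. Alternatives were other scaling, variance, probe set and filter choices, each group alone, each group or array left out, all 16 arrays, a replicate block, a 5′ to 3′ covariate and array pairs averaged.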

Additional observations from a re-analysis of the deposited data

Results flagged for a closer look

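For 43 named genes the difference between replicates 3 and 4 and replicates 1 and 2 was itself different between the groups, by limma's interaction test adjusted over all genes. The test rests on the spread within array pairs, and the number of arrays in a pair is 2. In what follows, 3 differences stand in the order Tgif1 OE, Tgif2 OE and BirA control cells, in log2, followed by the adjusted interaction p.

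For the next genes the differences were positive in all 3 groups and smallest in BirA control cells, except for Myl9 and Ccn2, where they were smallest in Tgif1 OE cells. Ltb had 1.46, 2.18 and 0.66 (5.70e-04), Phldb2 1.52, 1.98 and 0.53 (0.00339), and Krt19 1.48, 1.91 and 0.56 (0.00471). Prss23 had 0.20 in BirA control cells (0.00122), Anxa3 0.68 (0.00179), St8sia4 0.42 (0.012), Tgfb2 0.39 (0.00436), Krt18 0.27 (3.51e-04), Krt8 0.06 (3.51e-04) and Cryab 0.41 (0.0475). Of these, Prss23, St8sia4 and Tgfb2 were dim on the BirA control arrays. Among contractile genes Tagln had 0.82, 1.70 and 0.40 (0.0066), Acta2 1.04, 1.26 and 0.33 (0.00228), Cald1 0.88, 1.42 and 0.24 (0.00127), Myl9 0.24, 1.35 and 0.39 (0.0468) and Ccn2 0.17, 0.76 and 0.23 (0.00704). Perp followed with 0.67, 1.16 and 0.23 (0.00267), Gbp2 with 0.73, 1.40 and 0.36 (0.0262), B2m with 0.43, 0.72 and 0.38 (0.0347) and Skil with 0.43, 0.60 and 0.17 (0.0248).

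Pluripotency and lineage genes differed between groups as well. Tbx3 (0.0012), Esrrb (0.0177) and Klf4 (0.0101) were lower by less in BirA control cells, Klf4 with -0.56, -0.61 and -0.14. Pou3f1 had 0.20, 0.85 and 0.27 (0.00723), Id1 0.77, 1.09 and 0.54 (0.0285), Id2 0.69, 1.16 and -0.05 (0.00215) and Crabp2 0.76, 0.66 and 0.06 (0.00277). Sox7 had -0.61, -0.71 and 0.07 (0.0225), Neurod1 0.71, 1.14 and 0.65 (0.0436), Tubb3 -0.30, -0.78 and -0.17 (0.0285), Sox11 0.24, 0.65 and 0.15 (0.0354) and Dazl -0.53, -1.22 and -0.71 (0.00593).

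For the next genes the negative difference was largest in BirA control cells. Calcoco2 had -0.50, -0.98 and -1.30 (0.0033), Bnip3 -0.38, -0.17 and -1.40 (0.00122), Mt1 -0.70, -0.33 and -1.12 (0.0452), Mdm2 0.02, 0.04 and -0.52 (0.0373), Ccng1 0.04, 0.24 and -0.60 (0.00483) and Tmem40 -0.06, -0.07 and -1.76 (4.66e-05). The signs were opposite between BirA control cells and the other groups for Nefm (4.66e-05), Anxa2 (4.66e-05), Dsp (6.02e-05) and Uty (6.02e-05, with 1.03, 1.49 and -0.15). Sdhc had -0.40, -0.46 and 0.03 (0.0134), and the mitochondrial gene ND5 -0.38, -1.05 and -0.78 (0.0103).

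Over 423 sets of 4 arrays, 7 held 1 array far from the other 3 by Dixon's test. A chance rate of about 1 in 20 holds for 4 independent arrays. Each set here holds 2 close pairs, which leaves the test little room to flag 1 array, so the 2 rates cannot be compared. Cdkn1b on Tgif1 OE replicate 2 read 6.85 log2, Tgm2 on Tgif2 OE replicate 4 read 6.41, and Mdm2 on Tgif2 OE replicate 1 read 9.57. On BirA control arrays, Ankrd1 read 3.92 and Crabp2 6.16 log2 on replicate 3, and Cited1 read 4.83 and Cdkn1a 8.99 log2 on replicate 1.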

How the results depend on the processing

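The number of genes that differed between the sets was 4473, and lay between 1019 and 6296 over all alternatives. It was 1019 within Tgif1 OE alone, 2582 within Tgif2 OE alone, 1788 within BirA control alone (2 arrays against 2), 1038 with the 5′ to 3′ covariate, 1809 with array pairs averaged (added after seeing the data) and 4009 to 4408 without 1 array. The replicate block gave 6296, at an estimated correlation of -0.223 between arrays of the same number, and called 3 more of the 136 named genes. In the fits of 1 group alone, which do not pool the spread, and the other alternatives, the 3 p53 list genes called higher became 5 with means per group and set, 5 without BirA control cells, 5 with means per replicate number (added after seeing the data), 0 within BirA control cells, 1 within Tgif1 OE cells, 8 within Tgif2 OE cells, 0 with the covariate and 2 to 3 without 1 array. The 9 called lower became 14 with the replicate block, 3 within Tgif1 OE cells, 5 with array pairs averaged and 7 to 9 without 1 array. The 13 naive genes called lower became 8 within Tgif1 OE cells, 6 within BirA control cells, 3 with the covariate and 13 to 14 without 1 array. The 639 genes with an interaction became 1626 with a trended and robust variance, 1072 without the dimmest 33.3% of genes and 285 to 649 without 1 array. Without Tgif1 OE, Tgif2 OE or BirA control cells the smallest exact permutation p is 0.0556. The 5′ minus 3′ differences were then 0.10, 0.15 and 0.18 for Gapdh (0.13 to 0.16 without 1 array) and 0.10, 0.12 and 0.14 for Actb (0.11 to 0.14). Poly-A spike-ins then differed by -1.30, -1.28 and -1.45 (-1.49 to -1.19 without 1 array) and hybridization spike-ins by -0.25, -0.27 and -0.31 (-0.33 to -0.23). Named genes changed sign as follows. Within BirA control cells, Sdhc gave 0.03, Id2 -0.05, Sox7 0.07, Nefm -0.34, Uty -0.15, Tgif1 0.06, Anxa2 -1.29 and Dsp -0.64. With the covariate Nefm gave -0.08, Tgif1 0.05, Anxa2 -1.10 and Dsp -0.54. Without BirA control cells Mdm2 gave 0.03, Ccng1 0.14 and Pou5f1 -0.01. Within Tgif1 OE cells Mdm2 gave 0.02 and Ccng1 0.04. Within Tgif2 OE cells Mdm2 gave 0.04, Ccng1 0.24, Pou5f1 -0.02, Tgif1 0.04 and Tgif2 0.02. Without Tgif1 OE cells Tgif1 gave 0.05 and Anxa2 -0.14, and Anxa2 gave -0.21 without Tgif2 OE cells. Without 1 array Pou5f1 was between -0.01 and 0.03 and Tgif1 between -0.04 and 0.01. Of 136 named genes the call and sign of 136 held after quantile normalization, 129 with the mean of all probe sets, 107 with array pairs averaged and 56 with the covariate. Fits within 1 group or of pairs rest on fewer arrays, and otherwise the cause was not tested.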

Other observations

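The share of genes called was 11%, 31.7%, 52.8% and 48.9% over 4 equal groups of genes from dim to bright, while the median difference stayed between 0.001 and 0.046 log2. Over 4 groups by genomic span, used after the data were seen in place of protein length, 29.7%, 37.5%, 38.8% and 38.6% were called.

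Among the genes with the 12 largest rises and the 12 largest falls, 9 and 10 had a promoter in the RefSeq table. On either strand TATAAA was found for 3 and 2 of these genes, CACGTG for 2 and 2, TGANTCA for 2 and 2, CCAAT for 4 and 5, GGGCGG for 6 and 7 and the CArG box, to which serum response factor binds, for 0 and 2. The metal response core TGCACNC or TGCGCNC, added after the data were seen, was found for 6 and 2. Of all 32851 promoters of that length, 13.6%, 7.15%, 7.81%, 37.4%, 35.7%, 1.63% and 25.7% hold these motifs. Some genes have several windows, 17 in all for the rises and 12 for the falls, so counts by gene cannot be set against shares by window. By window, in the order above, 3, 2, 3, 5, 10, 0 and 6 of the 17 held the motifs. Of the 12 it was 2, 2, 2, 5, 8, 2 and 2. A match describes the sequence alone.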
